A study of Bos taurus with 18 samples.

Results

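The nuclear genes for the respiratory chain and ATP synthase were followed in RNA from milk somatic cells, the cells that can be collected from milk (white blood cells and shed udder epithelium). Members were the probe sets with a single gene symbol that begins NDUF, SDHA, SDHB, SDHC, SDHD, UQCR, CYC1, COX4, COX5, COX6, COX7, COX8 or ATP5, with the brightest probe set over the 18 arrays standing for each gene. This gave 89 genes, read by 116 probe sets, of 9155 named genes and 24016 probe sets tested. Structural subunits made up 78 of them: 36 of complex I, 4 of complex II, 9 of complex III, 13 of complex IV and 16 of complex V, which is ATP synthase. The other 11 are assembly factors, an inhibitor and relatives that share the first letters of a symbol, and they are counted apart. NDUFA4 begins like a complex I gene and was placed in complex IV, where its protein sits. COX4I2, COX6B1 and COX7B were not analysed here. A member's value is the deposited intensity of its probe set, taken as log2, so that a difference of -1 is a level 2-fold lower.

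Each of the 18 arrays held the milk cells of 1 dairy cow, 6 healthy, 6 with mastitis (inflammation of the udder) and 6 with endometritis (inflammation of the lining of the uterus). Per the labels, healthy cows showed no sign of disease in body, udder or milk and had under 100000 somatic cells per ml of milk. Most were sampled 10 to 100 days after calving. The labels give them ages of 2 to 4 years and lactations 1 to 8, which cannot both hold for a cow in lactation 8. The labels place the cows with either disease in lactations 1 to 8 and 10 to 220 days after calving, with no age, and name no pathogen and no cell count. Samples came from farms and veterinary clinics, and the RNA integrity number had to exceed 6 in all groups. No cell type was sorted, so each array reads a mixture.

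The respiratory chain passes electrons from NADH and succinate to oxygen through protein complexes of the inner mitochondrial membrane, and complexes I, III and IV pump protons as they do so. ATP synthase lets those protons flow back and makes ATP. Udder secretory cells spend much ATP on milk synthesis, whereas neutrophils, which enter the udder in mastitis, hold few mitochondria and make most of their ATP by glycolysis.

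Of the 89 genes, 84 lay above the median of all values (2.55, close to the floor of 2.43) on all 18 arrays. COX6A2, COX6B2, NDUFAF6, SDHAF3 and SDHAF4 did not. Marker genes of the cell types moved with mastitis. Of 11 neutrophil markers measured, 9 rose in mastitis, and their mean level per array ran from 4.38 to 6.21 in healthy, 7.86 to 9.26 in mastitis and 3.92 to 6.44 in endometritis milk. Of 14 markers of mammary secretory cells, 13 fell in mastitis, with mean levels from 11.06 to 12.52 in healthy, 5.78 to 8.83 in mastitis and 9.64 to 12.70 in endometritis milk. Of 10 epithelial structure markers, 7 fell, to means of 2.54 to 2.87, with CLDN3, KRT8 and ELF3 at background on all 6 mastitis arrays. Of 9 macrophage and 11 T cell markers, 0 passed the test by limma. The GAPDH control probe sets, whose 3′ minus 5′ difference grows as RNA is degraded, gave 0.88 ± 0.40 (SD, n = 6) in healthy, 0.39 ± 0.23 in mastitis and 0.58 ± 0.25 in endometritis milk. The part of these shifts in the results on the members was not tested, apart from a fit that held the GAPDH difference as a covariate.

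The first comparison, mastitis against healthy, asks how the udder disease is reflected in milk cells. The respiratory chain genes were lower in mastitis for the most part: 71 of 89 (79.8%) fell, 0 rose and 18 did not pass the test (limma, Benjamini-Hochberg adjusted p under 0.05 over all probe sets). Of all probe sets tested, 9.35% fell and 10.2% rose. Among genes above 2.55 on all arrays, as most members are, 23.1% fell and 17.1% rose. The median difference of the 89 members was -1.28, with a range from -3.44 to 0.61, against -0.06 for all genes above 2.55 on all arrays. In 57 members every mastitis array lay below every healthy array, which held for 5.84% of all probe sets and 13.1% of genes above 2.55 on all arrays. Of the 71 that fell, 60 did so by 2-fold or more, a count that was not made over all probe sets. In bulk RNA such as this, fewer cells of a type and less RNA per cell cannot be told apart. The count of 71 dropped to 43 (22, 0, 3, 5 and 10 in complexes I to V) with scaling to the hybridisation control probe sets, where the members' median was -1.03 and that of all features 0.25. With the GAPDH covariate it was 47 (21, 0, 5, 7 and 11), with a members' median of -1.18. Calls fell over the whole array as well, from 2246 probe sets lower to 947 and 572 in these fits. The sample titles hold numbers in a lower and an upper range, whose meaning the labels do not give. With that split as a block the count stayed at 71, with the same genes. Fits within each range also held its endometritis arrays, 1 in the lower and 5 in the upper range. The spread was thus estimated from unlike numbers of arrays, and the counts of these fits are not on equal terms. The mastitis arrays of the upper range were mastitis 1 and mastitis 2. In the lower range (3 healthy and 4 mastitis arrays, up to number 120) 0 members passed by limma and the median was -1.14, and in the upper range (3 and 2 arrays) 66 fell and the median was -1.75. Of all probe sets, 41 and 888 fell in those subsets.

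**Figure D1:**
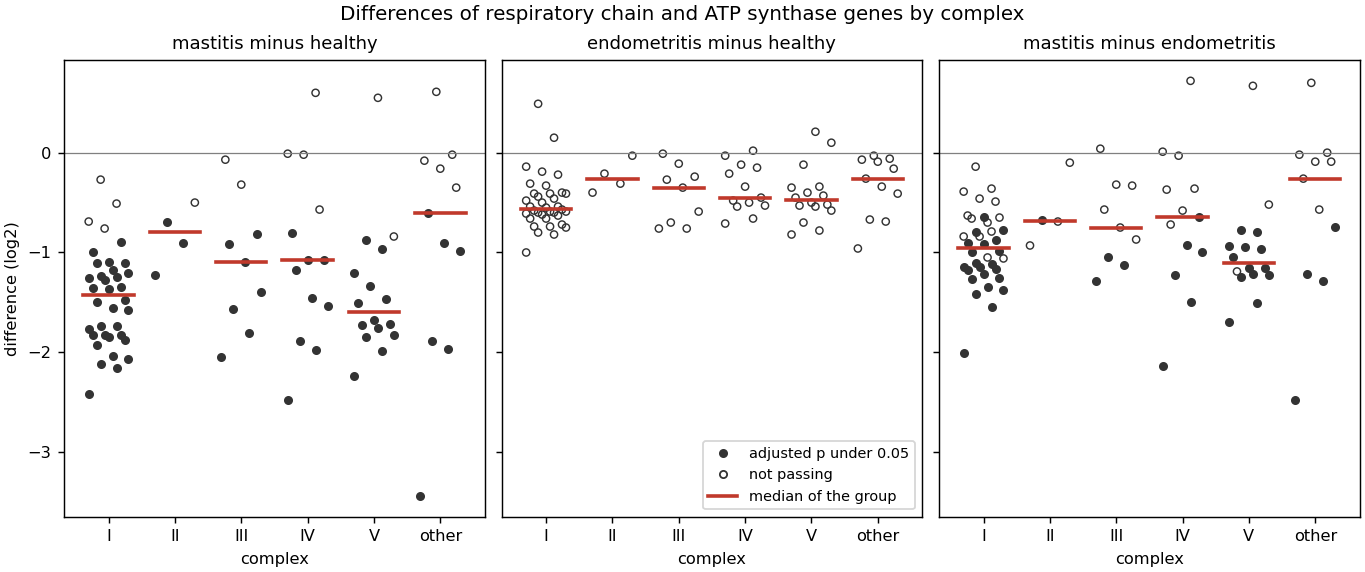
Difference in log2 value (y axis) of each of the 89 genes in the 3 comparisons, grouped on the x axis by complex, with filled points for adjusted p under 0.05, open points for the rest and a red line for the median. In mastitis minus healthy the filled points run from -3.44 to -0.60, in endometritis minus healthy all points are open around a median of -0.46, and mastitis minus endometritis has a median of -0.87.

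Complex I oxidises NADH and hands its electrons to ubiquinone. Of its 36 subunits 32 fell in mastitis, with a median of -1.43 and a range from -2.42 to -0.27, and in 29 the mastitis and healthy arrays did not overlap. NDUFC2, an accessory subunit of the membrane arm, stood at 9.20, 9.81 and 10.10 (lowest, median and highest array) in healthy milk, 6.42, 7.18 and 8.28 in mastitis and 8.95, 9.24 and 9.75 in endometritis. The mastitis arrays lay apart from both other groups, which overlapped each other. The fall of NDUFC2 was -2.42 ± 0.29 (SE; 5.34-fold, adjusted p = 6.72e-05 by limma). NDUFA1, a small membrane subunit needed to build the complex, stood at 9.28, 9.90 and 10.24 in healthy milk and at 7.73, 8.29 and 8.85 in mastitis. Its 6 mastitis arrays were all below the healthy ones, a fall of -1.50 ± 0.19 (adjusted p = 0.000109). NDUFB3, another membrane arm subunit, went from 7.99, 8.39 and 9.02 to 5.74, 6.37 and 7.08, again with no overlap (-1.93 ± 0.25, adjusted p = 0.000118). NDUFA11, also of the membrane arm, went from 6.39, 6.74 and 6.95 to 4.37, 4.83 and 5.79 without overlap (-1.77 ± 0.23, adjusted p = 0.000121).

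The 30 accessory subunits of complex I, which surround and stabilise the enzyme, gave 28 falls and a median of -1.57. The 6 measured core subunits, which form the enzyme's catalytic part outside the membrane, gave 4 falls and a median of -1.14. Whether these classes differ was not tested. Among the core subunits, the NADH- and flavin-binding NDUFV1 fell from a healthy median of 5.40 to 3.66 (-1.48 ± 0.29, adjusted p = 0.0019). NDUFS3 (-1.35, adjusted p = 0.00137), NDUFS7 (-1.18, adjusted p = 0.0026) and NDUFV2 (-1.11, adjusted p = 0.00225) fell as well, and all 4 had mastitis arrays below the whole healthy range. The remaining core subunits overlapped between the groups and did not pass. NDUFS1, the largest core subunit, had a healthy median of 4.66 and a mastitis median of 4.07 (-0.51 ± 0.26, adjusted p = 0.211). Its other probe sets lay near the floor, at -0.15 (adjusted p = 0.049 by limma, a pass) and 0.01 (adjusted p = 0.347). NDUFS8, which holds iron-sulfur clusters near the ubiquinone site, had medians of 6.25 and 5.51 (-0.76 ± 0.28, adjusted p = 0.0741). Without mastitis 3 or mastitis 5, NDUFS8 passed (adjusted p = 0.0495 and 0.034).

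The accessory subunits next to NDUFC2 in size of fall were spread over both arms of the enzyme. NDUFS6, near the NADH-oxidising module, fell by 2.16 on the log2 scale, and so did NDUFB7 (by 2.12), NDUFB4 (by 2.07) and NDUFS5 (by 2.04), none with overlap between mastitis and healthy arrays. The smallest difference belonged to NDUFV3, at -0.27 ± 0.20 (adjusted p = 0.41). NDUFA5, a subunit of the matrix arm, depended on its probe set. The brightest gave healthy values of 6.89, 7.01 and 7.48 and overlapping mastitis values of 5.43, 6.52 and 7.36 (-0.69 ± 0.29, adjusted p = 0.123). Another probe set for NDUFA5 gave 5.70, 7.18 and 7.62 in healthy and 3.79, 4.39 and 5.40 in mastitis milk, with no overlap (-2.38 ± 0.42, adjusted p = 0.000997). NDUFB2 disagreed the other way, with -1.25 (adjusted p = 0.00655) at its brightest probe set and -0.43 (adjusted p = 0.123) at another.

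NDUFAB1 and NDUFA13 lay near the threshold. NDUFAB1, the mitochondrial acyl carrier protein, fell by 1.00 on the log2 scale (adjusted p = 0.0315), with no overlap between the groups. It no longer passed without healthy 3, 4, 5 or 6 (adjusted p from 0.0504 to 0.0678) or without mastitis 1, 2 or 4 (from 0.0722 to 0.0768), at differences of -0.86 to -1.02. NDUFA13 fell by 1.28 (adjusted p = 0.0211) with overlapping arrays, and did not pass without mastitis 1, 2 or 4 (adjusted p from 0.0516 to 0.0532, differences from -1.07 to -1.14).

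Complex II oxidises succinate, is shared with the citric acid cycle and pumps no protons. Of its 4 subunits 3 fell in mastitis, with a median of -0.79 and a range from -1.23 to -0.50. SDHA, the flavin-binding subunit that oxidises succinate, stood at 6.76, 6.92 and 7.09 in healthy milk, 5.72, 6.21 and 6.83 in mastitis and 6.51, 6.96 and 7.33 in endometritis. The highest mastitis array reached into the narrow healthy range, and the fall was -0.69 ± 0.19 (1.62-fold, adjusted p = 0.0174). SDHD, a membrane anchor at the ubiquinone site, stood at 7.73, 7.94 and 8.89 in healthy and 6.18, 6.94 and 7.56 in mastitis milk. SDHD was the complex II gene without overlap (-1.23 ± 0.30, adjusted p = 0.00888). SDHC, the other anchor, went from 7.14, 7.67 and 7.92 to 6.04, 6.60 and 7.59, with overlap (-0.90 ± 0.27, adjusted p = 0.0256). SDHC did not pass without healthy 4, 5 or 6 (adjusted p from 0.0509 to 0.0556) or without mastitis 1, 2 or 4 (from 0.0612 to 0.0639). SDHB, the iron-sulfur subunit, stood at 7.84, 8.27 and 8.54 in healthy and at 6.79, 7.83 and 8.6 in mastitis milk. Its mastitis arrays spanned the whole healthy range (-0.50 ± 0.35, adjusted p = 0.395). Under hybridisation scaling, and also with the GAPDH covariate, 0 of the 4 complex II genes passed. Over all probe sets the count lower went from 2246 to 947 and 572 with these settings. In those fits the difference was -0.45 and -0.61 for SDHA, -0.65 and -0.88 for SDHC and -0.99 and -1.28 for SDHD.

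Complex III carries electrons from ubiquinol to cytochrome c. Of its 9 subunits 7 fell in mastitis, with a median of -1.10 and a range from -2.05 to -0.07. All 5 small subunits fell, with a median of -1.57. UQCRB, a small subunit at the ubiquinone-binding part of the enzyme, had the smallest p among all structural subunits. It stood at 9.0, 9.27 and 9.89 in healthy milk, 6.60, 7.07 and 8.03 in mastitis and 8.21, 8.55 and 8.97 in endometritis. The 3 groups did not overlap at all, with endometritis in between, and the fall in mastitis was -2.05 ± 0.24 (4.14-fold, adjusted p = 6.22e-05). UQCR10 went from a healthy range of 7.61 to 8.47 down to 5.29 to 7.30 in mastitis (-1.81 ± 0.29, adjusted p = 5e-04). UQCRQ, with healthy arrays from 6.38 to 7.39 and mastitis arrays from 5.61 to 6.23, fell by 0.92 (adjusted p = 0.00121). UQCR11, at 8.85 to 9.23 and 6.44 to 8.54, fell by 1.57 (adjusted p = 0.00273). None of these small subunits overlapped between healthy and mastitis arrays, while UQCRH, the acidic hinge protein, fell by 1.40 with overlap (adjusted p = 0.00457).

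The redox subunits of complex III fell with overlapping arrays. CYC1, the heme protein cytochrome c1, fell by 1.10 (adjusted p = 0.00519) and the Rieske iron-sulfur protein UQCRFS1 by 0.81 (adjusted p = 0.0194). The core proteins, which face the matrix and hold no redox centre, did not pass. UQCRC1 stood at 5.75, 6.07 and 6.55 in healthy milk, 5.70, 5.97 and 6.30 in mastitis and 5.6, 5.94 and 6.41 in endometritis. The groups lay on top of each other, with a mastitis difference of -0.07 ± 0.15 (adjusted p = 0.821) whose sign turned under hybridisation scaling and with array weights. UQCRC2 had a healthy median of 6.47 and a mastitis median of 6.18 (-0.32 ± 0.24, adjusted p = 0.417), and another probe set for it gave -0.31.

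Complex IV, cytochrome c oxidase, reduces oxygen to water. Its catalytic core is encoded in mitochondrial DNA, which the symbols in the rule leave out. Of the 13 genes measured, 9 fell in mastitis, with a median of -1.08 and a range from -2.48 to 0.60. NDUFA4, a subunit of the assembled oxidase, stood at 8.40, 9.33 and 9.99 in healthy milk, 5.59, 6.90 and 7.90 in mastitis and 8.28, 9.14 and 9.33 in endometritis. The mastitis arrays were lower than all others, and at -2.48 ± 0.41 (5.57-fold, adjusted p = 0.000608) NDUFA4 had the largest fall of the 78 structural subunits. COX7C, a small nuclear subunit, went from 9.26, 9.75 and 10.11 to 6.57, 7.96 and 8.52 (-1.89 ± 0.28, adjusted p = 0.00027). COX8A, another small subunit, went from a range of 8.69 to 9.69 down to 7.0 to 8.40 (-1.46 ± 0.22, adjusted p = 0.000279). COX5B, the zinc-binding subunit, went from 9.69 to 10.54 down to 7.73 to 9.48 (-1.54 ± 0.26, adjusted p = 7e-04). In all of these the healthy and mastitis arrays were separate.

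Complex IV also has pairs of isoforms that differ by tissue. Of the forms found in most tissues, COX6A1 fell at -1.08 (adjusted p = 0.00103), COX7A2 at -1.08 (adjusted p = 0.000811) and COX8A as above, while COX4I1 did not pass. Of the forms known from muscle or testis, COX8B fell by 0.80 (adjusted p = 0.00197), from healthy arrays at 6.21 to 6.71 to mastitis arrays at 5.25 to 6.20. COX7A1, low at a healthy median of 3.98 and a mastitis median of 4.74, did not pass (0.60 ± 0.34, adjusted p = 0.269). COX6A2 and COX6B2 lay near the floor in all groups, with no array above 2.64. COX4I1, the largest nuclear subunit, stood at 9.06, 9.20 and 9.76 in healthy milk, 7.89, 8.75 and 9.38 in mastitis and 8.09, 9.17 and 9.73 in endometritis. All groups overlapped (-0.57 ± 0.28, adjusted p = 0.18). COX5A, which sits beside COX4I1, fell by 1.18 (adjusted p = 0.0286), but not without healthy 5 or 6 (adjusted p = 0.0677 and 0.0581) or mastitis 1, 2 or 4 (from 0.0668 to 0.0705). COX6C fell by 1.98 without overlap (adjusted p = 0.000712).

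**Figure D2:**
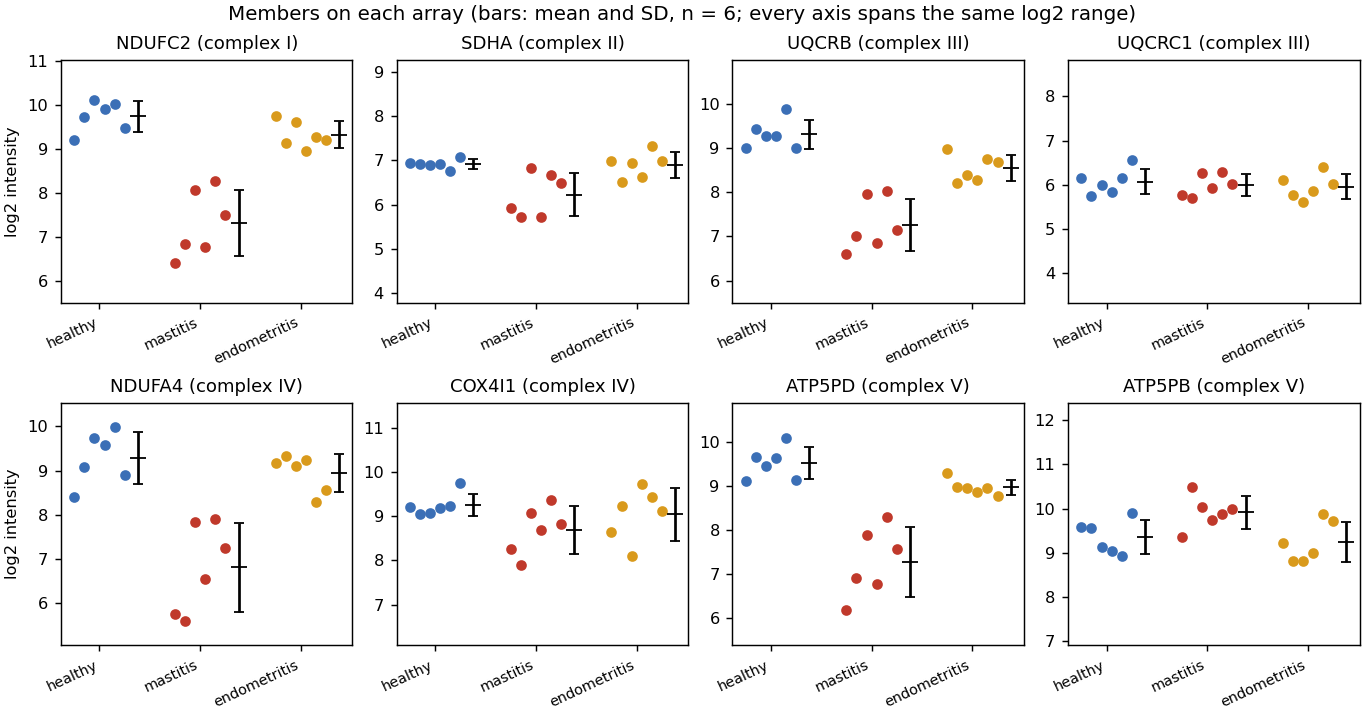
Log2 intensity (y axis) of 8 genes on each array of the healthy, mastitis and endometritis groups (x axis), with points for arrays and bars for the mean and SD of 6 arrays. The 6 mastitis arrays lie below all others for NDUFC2, UQCRB, NDUFA4 and ATP5PD, overlap the other groups for SDHA, UQCRC1 and COX4I1, and reach up to 10.49 for ATP5PB against 9.91 in healthy milk.

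Complex V, ATP synthase, has a catalytic head (F1), a turning ring of c subunits, a peripheral stalk that holds the head still, and small membrane subunits. Of its 16 genes 14 fell in mastitis, with a median of -1.60 and a range from -2.24 to 0.55, and 11 of them did not overlap. ATP5PD, the d subunit of the stalk, stood at 9.12, 9.54 and 10.09 in healthy milk, 6.18, 7.25 and 8.29 in mastitis and 8.78, 8.96 and 9.28 in endometritis. Its mastitis arrays were below all others (-2.24 ± 0.29, 4.74-fold, adjusted p = 0.000109). ATP5PF, coupling factor 6 of the stalk, went from a range of 8.75 to 9.38 down to 6.37 to 8.18 (-1.76 ± 0.28, adjusted p = 0.000471). ATP5PO, which joins the stalk to the head, fell by 1.73 without overlap (adjusted p = 0.00117).

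ATP5PB, the b subunit that forms the length of the same stalk, did not fall with them. It stood at 8.92, 9.35 and 9.91 in healthy milk, 9.35, 9.93 and 10.49 in mastitis and 8.81, 9.12 and 9.88 in endometritis. The mastitis arrays were the highest on average but overlapped both groups, and the difference did not pass (0.55 ± 0.23, adjusted p = 0.118). ATP5PB was read by 1 probe set, so that no other probe set could be set beside it.

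All 3 c-ring genes, which encode the same mature protein, fell, with ATP5MC2 at -1.85 (adjusted p = 0.00157), ATP5MC3 at -1.72 (adjusted p = 0.00823) and ATP5MC1 at -1.68 (adjusted p = 0.00147). The mastitis arrays of ATP5MC3 reached 9.70 and overlapped the healthy range from 9.52, and those of the other c-ring genes did not overlap. All 4 small membrane subunits fell without overlap. ATP5MJ, the smallest of them, went from 8.18, 8.76 and 9.22 to 5.82, 6.70 and 7.60 (-1.99 ± 0.28, adjusted p = 0.000203), ATP5ME fell by 1.83, ATP5MF by 1.47 and ATP5MG by 1.21. In the F1 head, 4 of 5 subunits fell, with a median of -0.97. The gamma subunit ATP5F1C, the shaft that turns inside the head, went from 9.23, 9.47 and 9.62 to 7.26, 7.87 and 8.66 without overlap (-1.51 ± 0.23, adjusted p = 0.00038). ATP5F1E fell by 1.34 (adjusted p = 0.000812) and ATP5F1D by 0.97 (adjusted p = 0.00756).

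The subunits that form the catalytic sites were near the threshold. The beta subunit ATP5F1B stood at 7.81, 8.21 and 9.14 in healthy and at 6.68, 7.42 and 8.20 in mastitis milk, with overlap (-0.84 ± 0.29, adjusted p = 0.0545). It passed without mastitis 3, mastitis 5 or endometritis 3 (adjusted p = 0.0345, 0.0241 and 0.0461). The alpha subunit ATP5F1A stood at 9.42, 9.68 and 10.55 in healthy and at 8.00, 8.89 and 9.73 in mastitis milk, also with overlap (-0.87 ± 0.29, adjusted p = 0.0463). That call held in 4 of 18 leave-one-out fits, without mastitis 3, 5 or 6 or without endometritis 3, and the adjusted p ran from 0.0161 to 0.109 over all 18.

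Of the 11 members that are not structural subunits, 6 fell in mastitis, with a median of -0.60. SDHAF4, which assists the assembly of the flavin subunit of complex II, stood at 4.12, 6.88 and 7.53 in healthy milk, 2.43, 2.7 and 3.14 in mastitis and 4.03, 5.14 and 6.40 in endometritis. Its mastitis arrays lay at or close to the floor and below all others (-3.44 ± 0.56, 10.8-fold, adjusted p = 0.000594), the largest fall of the 89 genes. ATP5IF1, the protein that inhibits ATP synthase when it runs backwards, went from a range of 8.51 to 9.42 down to 5.78 to 8.33 (-1.97 ± 0.38, adjusted p = 0.00178). NDUFAF8, a complex I assembly factor, fell by 1.89 (adjusted p = 0.000431), also without overlap. NDUFAF3, an assembly factor of complex I (by 0.99), COX7A2L, which takes part in joining complexes III and IV (by 0.90), and SDHAF1, which helps insert the iron-sulfur clusters of SDHB (by 0.60), completed the 6. SDHAF2, which attaches flavin to SDHA, was the highest member, at 0.61 ± 0.27 (adjusted p = 0.141), and it passed as higher without mastitis 2 (0.81, adjusted p = 0.0307). NDUFA4L2, a relative of NDUFA4 known to be induced by low oxygen, lay between 2.62 and 2.73 in mastitis and between 2.71 and 3.98 in healthy milk (-0.35 ± 0.16, adjusted p = 0.167).

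**Figure D3:**
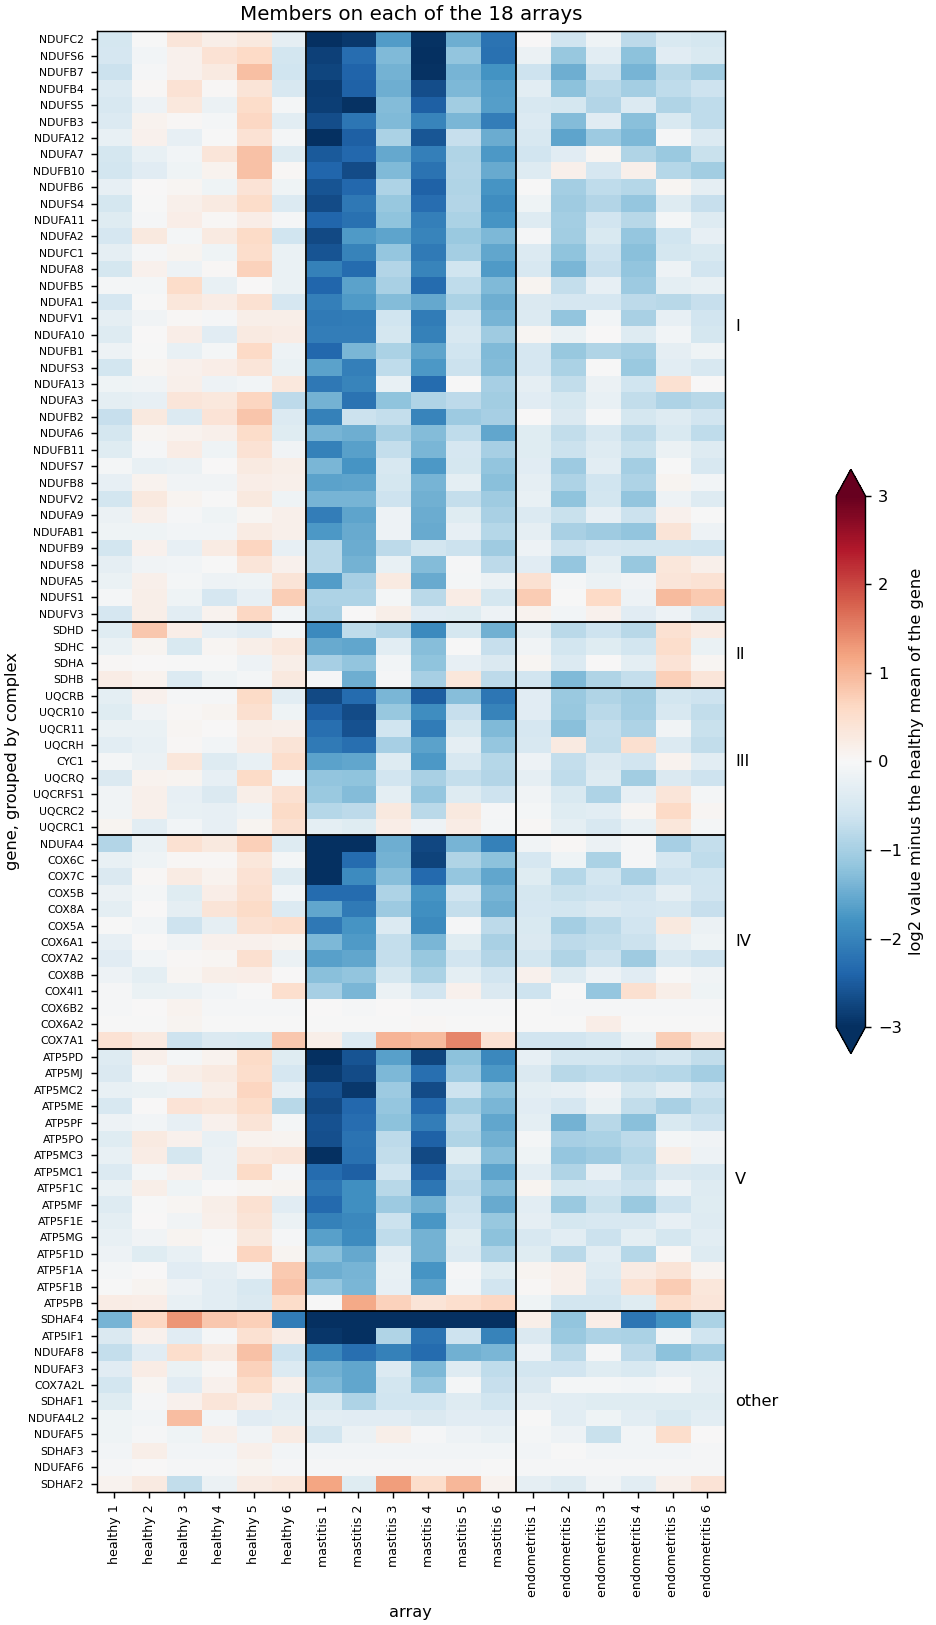
Each of the 89 genes (rows, grouped by complex and ordered by the mastitis difference) on each of the 18 arrays (columns), coloured by log2 value minus the healthy mean of the gene, with blue below, red above and the colour scale ending at -3 and 3. The blue of the mastitis columns is deepest for replicates 1, 2 and 4 and palest for 3 and 5, and ATP5PB, COX7A1 and SDHAF2 are the pale red rows among them.

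The mastitis cows differed among themselves, and they did so in all 5 complexes. With each subunit set against its healthy mean, the median over 76 subunits (all but COX6A2 and COX6B2) was -2.07, -1.86, -0.77, -1.81, -0.60 and -1.27 on mastitis arrays 1 to 6. The healthy arrays ran from -0.28 to 0.39. Arrays 3 and 5 were thus the nearest to healthy, and arrays 1, 2 and 4 the farthest. The same medians by complex ran from -2.09 to -0.74 for complex I, -1.32 to -0.12 for complex II, -1.61 to -0.48 for complex III, -1.77 to -0.57 for complex IV and -2.32 to -0.63 for complex V. Only for complex II did they reach into the healthy range, of -0.22 to 0.23, and differences between complexes were not tested. Of the 84 genes above 2.55 on all arrays, 74 (88.1%) had a larger SD in mastitis than in healthy milk, against 53.7% of all 4969 such genes. The neutrophil marker mean was 9.26, 9.06, 8.05, 8.91, 7.86 and 8.40 on mastitis arrays 1 to 6, and the macrophage marker mean 6.14, 5.40, 8.01, 5.81, 8.03 and 6.44. Arrays 3 and 5 thus had the lowest neutrophil and the highest macrophage marker means of the 6. The secretory marker mean was 8.83, 6.93, 5.78, 6.69, 5.97 and 6.21, highest on array 1. The GAPDH difference was 0.08, 0.48, 0.72, 0.26, 0.29 and 0.53. The part of cell makeup and RNA quality in the spread among mastitis cows was not tested.

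**Figure D4:**
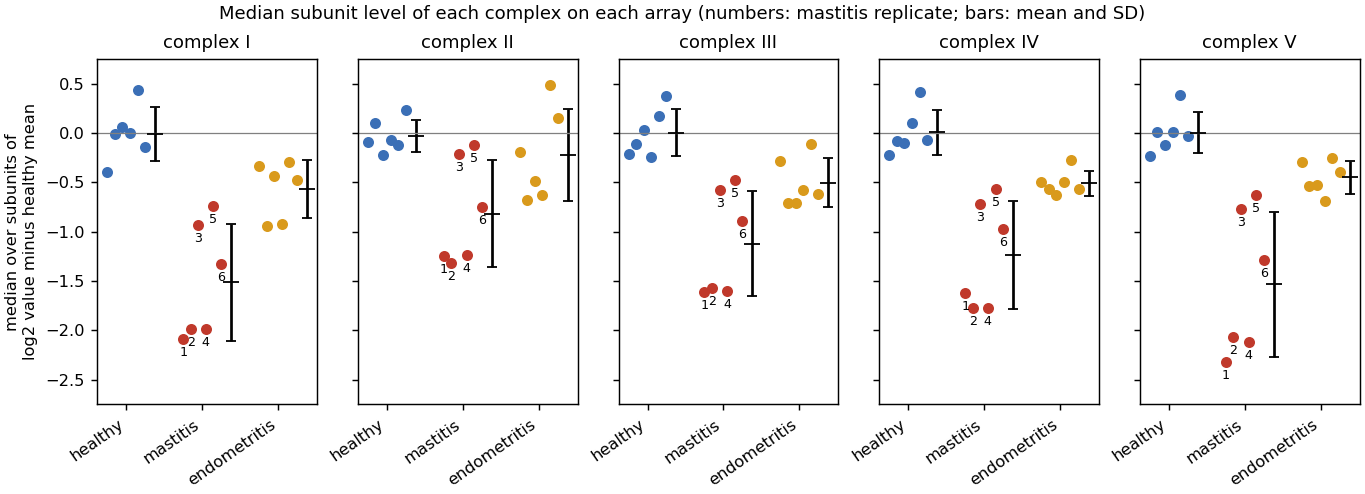
Median over the subunits of each complex of log2 value minus the healthy mean of the gene (y axis), for each array of the healthy, mastitis and endometritis groups (x axis), with mastitis replicates numbered and bars for the mean and SD of 6 arrays. Mastitis replicates 3 and 5 lie highest and 1, 2 and 4 lowest in every complex, and endometritis medians for complexes III to V lie between -0.71 and -0.11.

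The next comparison, endometritis against healthy, asks whether disease of the uterus is reflected in milk cells. By limma 0 of the 89 genes passed in endometritis, as did 0 of all 24016 probe sets (0.0%). At an unadjusted p under 0.05 there were 31 members, against 4.36% of all probe sets and 6.88% of genes above 2.55 on all arrays. The members' median difference was -0.46, with a range from -1.0 to 0.49, and 84 of 89 lay below 0, against a median of 0.02 and 47.1% below 0 among genes above 2.55 on all arrays. The medians by complex were -0.56, -0.26, -0.35, -0.45 and -0.47 for complexes I to V. In 6 genes every endometritis array lay below every healthy array, which held for 0.104% of all probe sets and 0.362% of genes above 2.55 on all arrays. COX7A2 had the smallest p of the members, with healthy arrays at 9.04, 9.35 and 9.86 and endometritis arrays at 8.30, 8.74 and 8.88 (-0.71 ± 0.19, unadjusted p = 0.00147, adjusted p = 0.911). The others were UQCRB (-0.76), ATP5PF (-0.82), NDUFC1 (-0.74), COX8A (-0.53) and ATP5MG (-0.43), each at an adjusted p of 0.925. NDUFB7, an accessory subunit of complex I, had the lowest difference, -1.0 ± 0.32 (unadjusted p = 0.00622, adjusted p = 0.925), with overlapping arrays. NDUFS1, the largest core subunit, had the highest, at 0.49 ± 0.26 (adjusted p = 0.925), with healthy arrays at 4.24, 4.66 and 5.49 and endometritis arrays at 4.59, 5.42 and 5.69. Under hybridisation scaling the members' median was -0.26, with all features at 0.20, and 70 of 89 lay below 0.

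The remaining comparison, mastitis against endometritis, sets the diseases side by side and shares the mastitis arrays with the first. Of the 89 genes 49 (55.1%) were lower in mastitis, 0 were higher and 40 did not pass, against 6.55% lower and 7.99% higher among all probe sets and 16.9% lower among genes above 2.55 on all arrays. The median difference was -0.87 (range from -2.48 to 0.72), against -0.11 for genes above 2.55 on all arrays. In 18 genes (20.2%) the groups did not overlap, which held for 3.91% of all probe sets and 8.47% of genes above 2.55 on all arrays. The counts by complex were 22 of 36, 1 of 4, 3 of 9, 6 of 13 and 13 of 16 for complexes I to V, with medians of -0.96, -0.68, -0.75, -0.64 and -1.10. NDUFA4 (-2.14, adjusted p = 0.00248), NDUFC2 (-2.01, adjusted p = 0.000338) and ATP5PD (-1.70, adjusted p = 0.00113) were lowest among structural subunits, and SDHAF4 (-2.48, adjusted p = 0.0075) among the rest. NDUFS1 (-1.0, adjusted p = 0.0164) and ATP5F1B (-1.05, adjusted p = 0.0232) passed here and not against healthy milk. Their differences between endometritis and healthy milk were 0.49 and 0.21, neither of which passed. ATP5F1B was near the threshold in both mastitis comparisons, at -0.84 against healthy milk (adjusted p = 0.0545 by limma). Its call against endometritis was lost without mastitis 1, 2 or 4 or endometritis 5 (adjusted p from 0.0505 to 0.0591 by limma). ATP5PB was at 0.67 ± 0.23 (adjusted p = 0.067). The count of 49 moved to 19 under hybridisation scaling, 29 with array weights and 31 in a fit of the 2 groups alone, with members' medians of -0.82, -0.61 and -0.87. Over all probe sets the count lower moved from 1574 to 812, 1157 and 1291. It ran from 34 to 63 when 1 array was left out, and 16 of the 49 calls were lost in at least 1 of those fits.

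Other genes of mitochondrial energy supply and glycolysis, taken from lists of known function, are given for mastitis against healthy, beside the same background. Of all probe sets, 9.35% fell and 10.2% rose, and of genes above 2.55 on all arrays 23.1% fell and 17.1% rose. Of 19 measured assembly factors and cytochrome c partners outside the rule, 10 fell, 1 rose and 8 did not pass, with a median of -0.55. COX16, a complex IV assembly factor, went from 4.80, 5.13 and 5.38 in healthy to 3.11, 3.93 and 4.27 in mastitis milk (-1.28 ± 0.18, adjusted p = 0.000194). UQCC3, of complex III assembly, fell by 1.59 (adjusted p = 0.000228), and SCO1, which delivers copper to complex IV, by 1.00 (adjusted p = 0.000627). The rise was COX19, of the copper pathway to complex IV, at 0.65 (adjusted p = 0.019), a gene singled out after its value was seen, which did not pass with the 2 groups alone, quantile normalisation or the GAPDH covariate. Of 16 measured citric acid cycle and pyruvate dehydrogenase genes, 8 fell and 0 rose, with a median of -0.92. PDHA1, the pyruvate dehydrogenase alpha subunit, went from 6.63, 6.97 and 7.26 to 4.39, 5.45 and 6.04 (-1.70 ± 0.26, adjusted p = 0.000406). SUCLG1, of succinyl-CoA ligase, fell by 1.80 (adjusted p = 0.00117) and PDHX, which holds that dehydrogenase together, by 1.03 (adjusted p = 0.0036). All 3 were without overlap, as were COX16 and UQCC3. The calls of SCO1 and PDHX were each lost in 1 of the alternative fits.

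Of 11 measured genes of mitochondrial biogenesis and DNA upkeep, 2 fell and 9 did not pass, with a median of 0.00. The share that fell lay between the 9.35% of all probe sets and the 23.1% of genes above 2.55 on all arrays. The 2 that fell were TFB2M, a mitochondrial transcription factor (-1.03, adjusted p = 0.00513), and PPARGC1A, a coactivator of mitochondrial genes. PPARGC1A ran from 2.43 to 4.12 in healthy milk and was at background on all 6 mastitis arrays, at least 1.43-fold lower (adjusted p = 0.0446), and SSBP1, which binds mitochondrial DNA, gave -0.69 (adjusted p = 0.0553). PPARGC1A kept its call in 3 of 18 leave-one-out fits and lost it in 5 of the alternative fits, and TFB2M lost its call in 2. Of 14 measured carriers, pores and inner membrane genes, 2 fell and 1 rose, with a median of -0.22. The share that fell again lay between the 9.35% and 23.1% of the background. The share that rose lay below the 10.2% of all probe sets. SLC25A4, which exchanges ATP for ADP across the inner membrane, went from 6.48, 7.17 and 7.75 to 3.86, 4.95 and 6.00 without overlap (-2.17 ± 0.38, adjusted p = 0.000884). CHCHD3, of the inner membrane folds, fell by 0.96 (adjusted p = 0.0128 by limma), a call lost in 2 of the alternative fits. VDAC3, an outer membrane pore, rose by 1.38 (adjusted p = 0.0108 by limma), though not with the GAPDH covariate.

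Among glycolysis genes more rose than fell. Of 22 measured, 8 rose, 1 fell and 13 did not pass, with a median of 1.28. The background was 10.2% higher among all probe sets and 17.1% among genes above 2.55 on all arrays. On all arrays, 2 of the 22 were at background. SLC16A3, which exports lactate, went from 3.72, 4.20 and 6.40 in healthy to 7.86, 8.30 and 9.63 in mastitis milk (3.89 ± 0.70, adjusted p = 0.00109). SLC2A1, a glucose transporter, went from 4.47, 5.20 and 5.88 to 6.24, 7.29 and 8.35 (1.97 ± 0.34, adjusted p = 0.000815). Both were without overlap. ALDOC, an aldolase, was the gene that fell (-1.76, adjusted p = 0.00228 by limma), a call lost in 1 of the alternative fits. In endometritis against healthy milk, 0 genes of these 5 lists passed by limma, as for all probe sets, and the lists' medians were -0.24, -0.01, 0.06, -0.02 and 0.18 in the order given here.

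**Figure D5:**
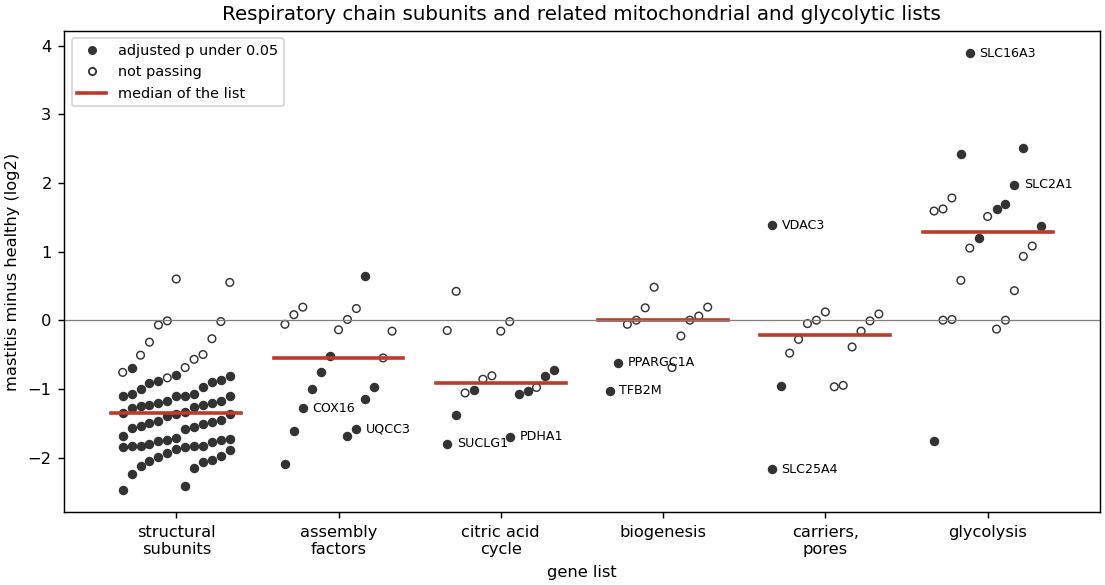
Difference in log2 value between mastitis and healthy milk (y axis) of the 78 structural subunits and of the genes of 5 related lists (x axis), with filled points for adjusted p under 0.05, open points for the rest and red lines for the medians. The subunits have a median of -1.36, the citric acid cycle -0.92, the biogenesis list 0.00 and glycolysis 1.28.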

How the data were processed

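RNA from milk cells of 18 cows was measured on Affymetrix bovine genome arrays, from 100 ng of total RNA with a kit that primes at the 3′ end. The authors deposited 1 table of normalised intensity for 24128 probe sets. RMA, GCRMA and limma are named per the submitters' processing notes, with no version. The values the authors deposited were taken as log2: they run from 2.43 to 14.2 with a pile-up at the floor, as GCRMA gives, but neither the base nor the method is stated. Fold changes rest on that reading. GCRMA can make low values alike, so that differences near the floor are understated.

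In R 4.3.3, limma 3.58.1 fitted 1 term per group to all 18 arrays and 24016 probe sets that are not controls (lmFit, eBayes, two-sided, 15 residual and 0.561 prior degrees of freedom), with Benjamini-Hochberg adjustment over all of them and a threshold of 0.05. Members were read out of that table. A gene with all 6 arrays of a group at or under 2.55 counted as at background, and its fold is a lower bound against 2.55. Groups came from the labels, which describe separate cows. The number of arrays limits the precision. No batch is recorded. Numbers in the sample titles, of unstated meaning, were tried as a block (up to 120 or above), chosen after seeing the data.

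The members, lists and tests were chosen with earlier results of these data known. All members may be named. Values by array are given, per complex, for the called subunits with the smallest p in mastitis (up to 4) and for subunits of known role, and other pathway genes by smallest p (up to 3 a list). Further members were named after their values were seen. All 89 symbols matched the Entrez identifiers of a reference gene table, which was used for names alone.

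Alternatives left out dim probe sets, fitted 2 groups alone, centred arrays, quantile normalised, scaled to hybridisation controls, weighted arrays, used a trended robust prior, added the GAPDH difference as a covariate, averaged probe sets, adjusted over 1 probe set per gene, or left out each array. The fit was tested on simulated data, with shifts of known size added to some probe sets. In endometritis against healthy it recovered 10% of shifts of 0.5 on the log2 scale, 40% of 1.0 and 86% of 2.0. The shares were 30%, 48% and 92% in mastitis against healthy, and 20%, 38% and 82% in mastitis against endometritis. Shifts of the smaller sizes are thus mostly missed.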

Additional observations from a re-analysis of the deposited data

Results flagged for a closer look

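In 224 groups of 6 arrays, 6 held an array whose gap to its nearest neighbour exceeded Dixon's critical share of the group's range, where chance gives about 5% of groups. The flagged groups were thus fewer than chance gives. Healthy 6 was high for ATP5F1A, at 10.55 with the next array at 9.78, and for COX4I1, at 9.76 with the next at 9.23. NDUFA4L2 was 3.98 on healthy 3 with the next at 2.97, and 2.62 on mastitis 4 with the next lowest at 2.7. COX5B was 9.78 on endometritis 5 with the next at 9.53. The complex IV median against the healthy mean was -0.27 on endometritis 5 with the next at -0.50.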

How the results depend on the processing

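In mastitis against healthy, members lower numbered 71, and 43 with arrays scaled to hybridisation controls (median -1.03, all features at 0.25, with 947 probe sets lower and 2043 higher in place of 2246 and 2443) and 47 with the GAPDH covariate (median -1.18, 572 lower and 856 higher). All 43 and all 47 were among the 71. The other 8 alternatives gave 65 to 75, and leaving out 1 array 66 to 74, with 0 to 1 members higher. Chosen after seeing the data, a block for the range of the title numbers gave 71, and fits within the lower and upper range 0 and 66. In mastitis against endometritis, 49 became 31 with the 2 groups alone, 19 with hybridisation scaling and 29 with array weights. The others planned gave 40 to 64, the title block 67, and leaving out 1 array 34 to 63. ATP5PB was the 1 member higher there when dim probe sets were left out, arrays were centred, probe sets were averaged, or p was adjusted over 1 probe set per gene, and leaving out 1 array gave 0 to 1. In endometritis against healthy 0 members passed under all alternatives, with a members' median of -0.26 under hybridisation scaling and -0.33 with the title block.

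Members below 0 numbered 80 in place of 86 against healthy under hybridisation scaling in mastitis, and 70 in place of 84 in endometritis. Among members described with values, the differences that changed sign were small and not called. Against healthy, COX6A2 became 0.24 and COX6B2 0.23 with hybridisation scaling, COX6A2 and NDUFV3 0.03 and 0.00 with the GAPDH covariate, and UQCRC1 0.17 with hybridisation scaling and 0.06 with array weights. Against endometritis, COX6A2 became 0.02 with centred arrays and with hybridisation scaling, NDUFV3 0.06 with array weights, and UQCRC1 -0.09 with quantile normalisation -0.02 with the GAPDH covariate and -0.10 with the title block. The cause was not tested.
Leaving out 1 array gave, against healthy, -0.02 to 0.01 for COX6A2 and for COX6B2 and -0.14 to 0.02 for UQCRC1, and against endometritis -0.04 to 0.01 for COX6A2, -0.23 to 0.00 for NDUFV3, -0.28 to 0.13 for SDHB and -0.03 to 0.13 for UQCRC1.

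No paired analysis was possible because the replicate numbers follow the order of deposit and do not pair cows. With 6 arrays a group, the spread among cows, estimated over all groups together, sets the precision. Probe sets near the floor, COX6A2, COX6B2 and NDUFA4L2 among them, carry little signal.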
